A study of Homo sapiens with 6 samples.

Results

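Interferon-stimulated genes are the genes that cells switch on when interferons reach them. The 47 examined here were chosen by name, as a list of transcription factors, RNA sensors and antiviral effectors of this response. Of these, 46 had a probe set annotated with their symbol alone, out of 19775 such genes on the array, and STAT2 was not analysed here. Where a gene had several probe sets, its brightest was used, by the mean of all 6 arrays. A mean of at least 5 on the log2 scale was required for a test, which left 37 of the 46 genes, among 13506 genes tested in all, and 9 too dim to test.

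The cells were A375, a human melanoma line driven by mutant BRAF, in which the gene for the translation factor eIF4B had been knocked out by CRISPR. All 6 arrays therefore come from knockout cells: the knockout line carries lentiviral LacZ (KO/LacZ), and the rescued line carries lentiviral wild-type eIF4B (KO/eIF4B). Each line was given vehicle (DMSO), 10 µM vemurafenib, a BRAF inhibitor, for 6 h, or 10 µM vemurafenib for 18 h, with 1 Affymetrix array for each of these 6 groups. The labels name no interferon treatment and give no time for vehicle. They do not say how many clones each line holds, and no parental A375 sample was used here. Where nothing says that arrays came from separate cultures, the p-values measure only the spread between these arrays, which may be technical.

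As background, interferons bind receptors at the cell surface that activate JAK kinases. Type I and type III interferons lead to a complex called ISGF3, which contains IRF9 and binds the interferon-stimulated response element (ISRE) in promoters. Type II interferon acts through the gamma-activated site (GAS). The products of the genes so induced degrade viral RNA, block its translation, modify proteins with ISG15 or amplify the response, and tumour cells can express some of them without added interferon.

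After 18 h of vemurafenib, 25 of the 37 tested interferon-stimulated genes were higher than under vehicle and 6 were lower (limma, line and treatment as additive terms, 6 arrays, Benjamini-Hochberg adjusted p under 0.05). The background was 28.1% of all genes tested higher and 23.3% lower. The median change of the 37 genes was 0.73 log2 units, against 0.01 for all genes tested. IRF9, IFIT1, IFIT2, GBP1, PARP9, ISG15 and DDX60 led the rise on their brightest probe sets, at 2.33-fold to 3.70-fold, and ISG20 led the fall at 2.67-fold. Among all 46 genes with a probe set, 32 were above vehicle in both lines at 18 h, 8 were below it in both and 6 differed in sign between the lines, whereas 36.99% of all 19775 genes were above vehicle in both. In these bulk samples, a change in every cell and a change in the share of cells that express a gene cannot be told apart.

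Many of these genes carry the ISRE core in the promoter, whichever way they moved. The promoter table of RefSeq (GRCh38.p14) holds windows of 300 bases, from 250 before to 50 after the annotated start site, and 38 of the 47 genes matched it by symbol, some with several start sites. The ISRE core was searched as the letters GAAA followed by any 2 bases and GAAA again, and the GAS core as TTCNNNGAA, on both strands, where the cores can overlap. Stretches of 90 bases, read along the gene's strand, are shown as examples of genes that rose or fell at 18 h, picked after their values were seen. Capitals mark the ISRE core, or the GAS core for IRF9. The genes that rose at 18 h come first (IFIT1, chr10:89392473-89392562, plus strand; ISG15, chr1:1013347-1013436, plus strand; IFI6, chr1:27672268-27672357, minus strand; DDX60, chr4:168318774-168318863, minus strand; GBP1, chr1:89065286-89065375, minus strand; IRF9, chr14:24161161-24161250, plus strand), followed by ISG20 (chr15:88638907-88638996, plus strand) and PLSCR1 (chr3:146544637-146544726, minus strand), which fell.
IFIT1: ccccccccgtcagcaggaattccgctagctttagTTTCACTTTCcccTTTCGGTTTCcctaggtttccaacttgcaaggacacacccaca
ISG15: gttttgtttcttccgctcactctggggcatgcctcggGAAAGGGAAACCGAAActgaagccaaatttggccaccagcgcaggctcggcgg
IFI6: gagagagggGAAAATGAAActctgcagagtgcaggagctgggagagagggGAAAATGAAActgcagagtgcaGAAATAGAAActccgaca
DDX60: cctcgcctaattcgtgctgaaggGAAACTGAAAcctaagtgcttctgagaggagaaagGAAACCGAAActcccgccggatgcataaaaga
GBP1: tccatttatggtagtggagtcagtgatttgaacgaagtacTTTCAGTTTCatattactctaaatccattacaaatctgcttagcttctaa
IRF9: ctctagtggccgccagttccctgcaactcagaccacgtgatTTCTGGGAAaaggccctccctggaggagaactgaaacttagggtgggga
ISG20: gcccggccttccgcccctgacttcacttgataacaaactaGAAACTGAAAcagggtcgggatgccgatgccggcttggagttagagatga
PLSCR1: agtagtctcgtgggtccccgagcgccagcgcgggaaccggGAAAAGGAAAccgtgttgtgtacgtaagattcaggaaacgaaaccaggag

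In IFIT1 and GBP1 the core lies on the strand opposite to the gene, so it reads as TTTC pairs. The ISG15 stretch holds 2 cores that overlap, DDX60 holds 2 that lie apart, and IFI6 holds 3. An ISRE core was present in 25 of the 38 matched genes (65.8%), against 4.38% of all 27305 gene symbols in the table, and in 57.7% of these genes' windows, against 3.57% of all 35116 windows. A GAS core was present in 14 of the 38 (36.8%), against 9.38% of all symbols, and in 30.8% of their windows, against 7.66% of all windows. Among matched genes that rose at 18 h, 13 of 20 held an ISRE core and 7 of 20 a GAS core, and among those that fell, 4 of 6 and 3 of 6. ISG20, PLSCR1, BST2 and IFIT5 were the falling genes with an ISRE core. A match describes these letters in this window and is not a measured binding site.

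**Figure D1:**
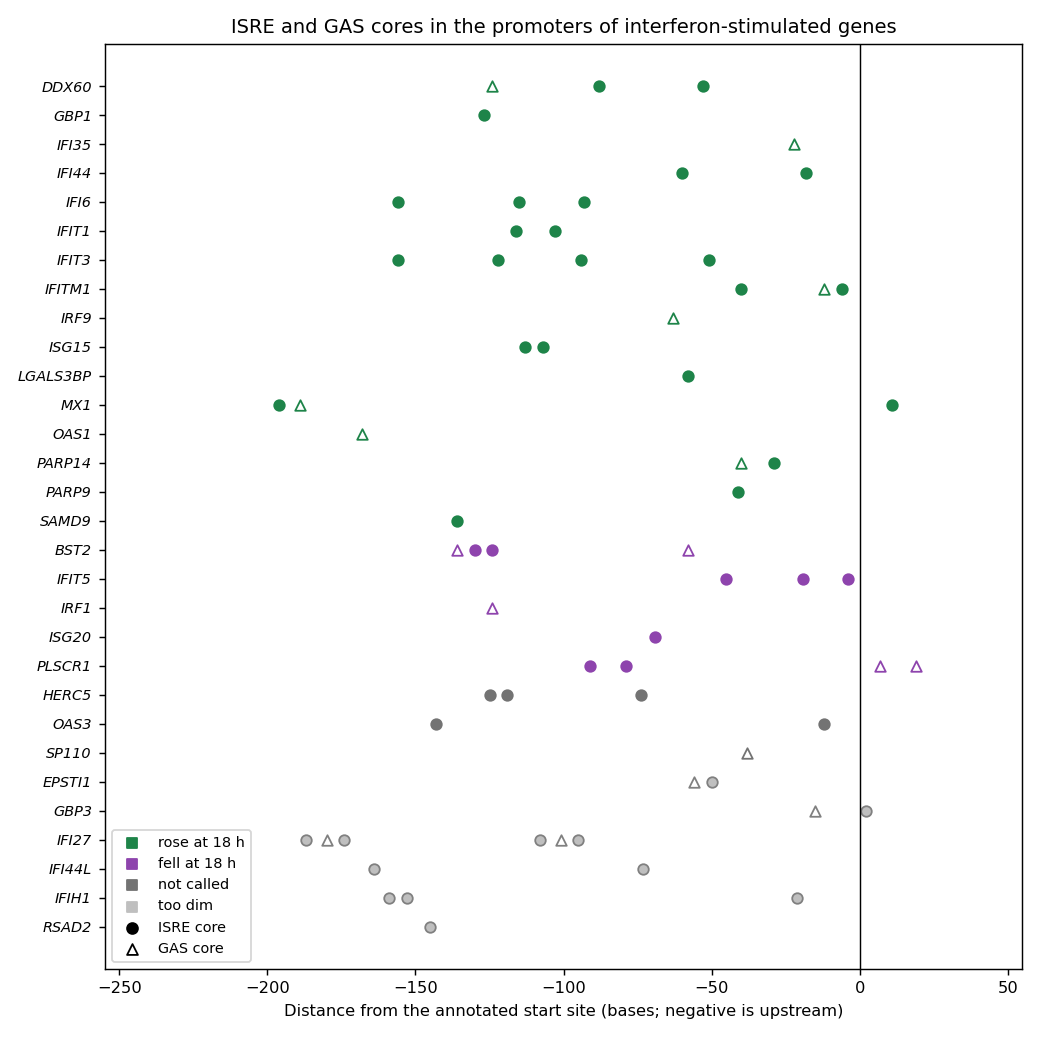
Position of ISRE cores (filled circles) and GAS cores (open triangles) in the 300-base promoter windows, in bases from the annotated start site, for the 30 matched genes with a probe set and at least 1 core; colours give the result at 18 h. A gene with several annotated start sites shows a core once for each window, and genes that rose and genes that fell both carry ISRE cores.

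The median signal of an array over all probe sets ranged from 5.20 to 5.22 (log2), a near equality that the normalization itself brings about. Over the genes tested the median of an array ranged from 7.67 to 7.83. The precision is limited by the number of arrays. The targeted gene, EIF4B, read 8.40, 8.53 and 8.53 in the knockout line, against 10.07, 10.14 and 10.28 in the rescued line under vehicle, 6 h and 18 h, and was lower in the knockout line (log2 difference, knockout minus rescued, -1.68, SE 0.05, limma adjusted p = 0.0056). The mean of all EIF4B probe sets differed by -0.44, and without any 1 of the 4 drug arrays the adjusted p by limma was 0.062 to 0.082. Of the melanoma markers, MITF, SOX10, PMEL, TYR, S100B and S100A1 were bright enough to test and MLANA was too dim. MITF rose by 1.01 log2 units at 6 h and 1.63 at 18 h, and S100A1 by 0.28 at 18 h. SOX10 fell by 0.63 at 6 h and did not pass at 18 h, and PMEL, TYR and S100B passed at neither time. The leucocyte markers PTPRC, MS4A1, CD2, NKG7, CD14, CSF1R and CLEC4C were all too dim to test, while CD3E, LYZ, ITGAM and IL3RA were bright enough. Of the marker lists for lymphoid cells and for myeloid and plasmacytoid dendritic cells, no member rose at 18 h and LYZ fell, and the summed signal of the lists was 6.80 and 6.87, and 7.67 and 7.80, at 18 h in the knockout and rescued lines, against 6.88 and 6.97, and 8.04 and 8.24, under vehicle (log2). The fibroblast markers LUM and DCN rose by 2.49 and 1.78 log2 units at 18 h, 2 of 3 tested, and the summed signal of that list was 9.97 and 10.33 at 18 h, against 8.70 and 9.01 under vehicle; COL1A2 and PDGFRA were too dim to test. Of the epithelial markers, KRT14 rose by 1.45 and KRT8 by 0.39 at 18 h, KRT18 fell by 0.78, and EPCAM and CDH1 were too dim. The part of these markers in the changes of interferon-stimulated genes was not tested.

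Values of single genes are RMA signals (log2), given for vehicle, 6 h and 18 h in that order, and changes are in log2 units. The transcription factors of the response are described first. IRF9, the DNA-binding subunit of ISGF3, read 6.59, 6.86 and 8.80 in the knockout line, against 6.56, 6.82 and 8.13 in the rescued line under vehicle, 6 h and 18 h. It differed from vehicle by 0.27 and 0.26 at 6 h and stood clear of the other arrays at 18 h in both lines, with a fitted rise of 1.89 (SE 0.17, 3.70-fold, limma adjusted p = 0.0009), the largest of the 37 genes. IRF7, which amplifies interferon production, read 6.14, 6.23 and 6.81 in the knockout line, against 6.54, 6.77 and 7.18 in the rescued line, and rose by 0.66 (SE 0.07). In IRF7 each line was higher at 18 h than on its own other arrays, and the rescued line was higher than the knockout line at every treatment. IRF2, mainly a repressor at the same promoter sites as IRF1, read 7.51, 7.41 and 7.89 in the knockout line, against 7.47, 7.62 and 7.80 in the rescued line, and rose by 0.36 (SE 0.09). IRF1, an activator induced above all by type II interferon, went the other way. IRF1 read 7.40, 6.78 and 6.98 in the knockout line, against 7.32, 7.10 and 6.85 in the rescued line, highest under vehicle in both lines, and fell by 0.44 at 18 h (SE 0.12, limma adjusted p = 0.031). Its second probe set differed by -0.15 and did not pass (limma adjusted p = 0.18).

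**Figure D2:**
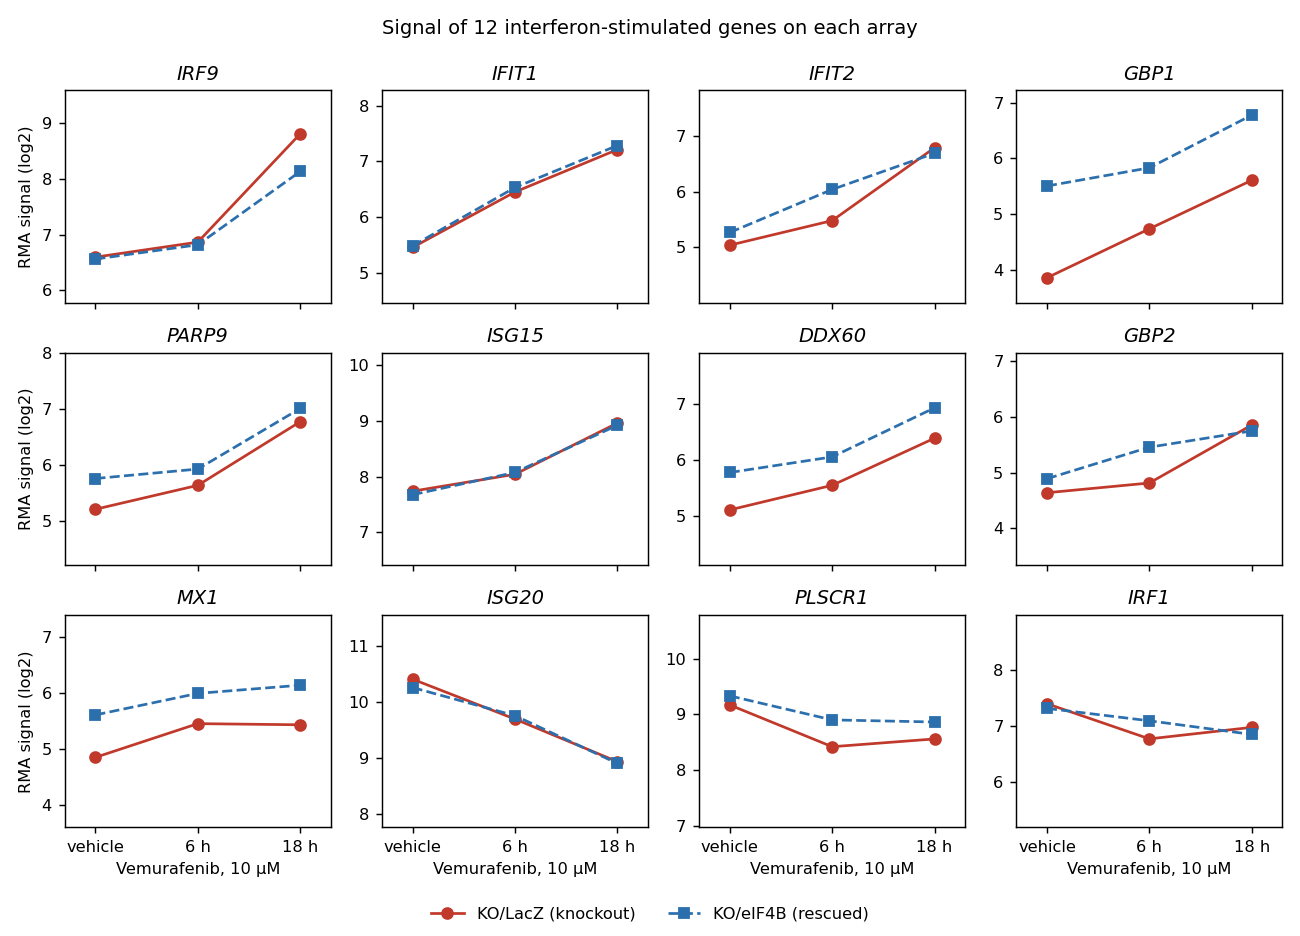
RMA signal (log2) on each of the 6 arrays for 12 interferon-stimulated genes under vehicle, 6 h and 18 h of 10 µM vemurafenib; red circles are the knockout line and blue squares the rescued line, 1 array per point, each panel spanning 3.8 log2 units. IRF9, PARP9 and ISG15 climb mainly between 6 h and 18 h, IFIT1 climbs in both intervals, ISG20 falls at each step, and GBP1, DDX60 and MX1 stay lower in the knockout line throughout.

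Of the sensors of viral RNA, DDX60 passed against vehicle and RIGI, on its brightest probe set, passed between 18 h and 6 h only. DDX60, a helicase that promotes RNA sensing, read 5.10, 5.54 and 6.39 in the knockout line, against 5.77, 6.05 and 6.93 in the rescued line. It was higher at each later time in each line, and rose by 1.22 at 18 h (SE 0.07, limma adjusted p = 0.00034). RIGI, which detects viral RNA with a 5' triphosphate, read 6.53, 6.35 and 6.71 in the knockout line, against 6.63, 6.50 and 6.68 in the rescued line. RIGI was lowest at 6 h in both lines; it differed from vehicle by 0.12 at 18 h, without passing the threshold, and 18 h was above 6 h by 0.27 (limma adjusted p = 0.04). The second RIGI probe set fell by 0.49 at 6 h (limma adjusted p = 0.028 in the fit of all 24979 probe sets of sufficient signal). It differed from vehicle by 0.04 at 18 h, and its 18 h level was above 6 h by 0.53. With the mean of all probe sets RIGI was called lower at 6 h. IFIH1, the sensor MDA5, was too dim to test.

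Among the 2'-5'-oligoadenylate synthetases, which make the activator of the RNA-degrading enzyme RNase L, OAS1 read 5.22, 5.19 and 6.01 in the knockout line, against 5.26, 5.49 and 5.94 in the rescued line, and rose by 0.74 (SE 0.10). Both 18 h arrays of OAS1 were above all 4 other arrays. OASL, a family member that lacks the enzyme activity and binds RIGI, read 5.06, 5.23 and 5.60 in the knockout line, against 5.20, 5.15 and 5.40 in the rescued line, and rose by 0.37 (SE 0.10, limma adjusted p = 0.026). Its second probe set was too dim to test, at a mean of 4.47. That probe set read 4.38, 4.40 and 4.40 in the knockout line, against 4.35, 4.46 and 4.81 in the rescued line. OAS3 differed by -0.13 on its brightest probe set and did not pass; its second probe set gave -0.78 (limma adjusted p = 0.0019 in the fit of all 24979 probe sets of sufficient signal), so the OAS3 probe sets disagree in size. OAS2 was too dim to test.

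The IFIT proteins bind foreign RNA ends and block its translation. IFIT1 read 5.46, 6.45 and 7.21 in the knockout line, against 5.49, 6.53 and 7.28 in the rescued line. The lines differed by at most 0.08 log2 units at any treatment, and IFIT1 rose by 1.77 at 18 h (SE 0.06, 3.42-fold, limma adjusted p = 0.00014). IFIT2, which also acts with IFIT3 and is linked to cell death, read 5.04, 5.48 and 6.78 in the knockout line, against 5.27, 6.04 and 6.69 in the rescued line, and rose by 1.58 (SE 0.16), and its second probe set rose by 0.79. IFIT3, which stabilises IFIT1, moved less. IFIT3 read 7.60, 7.28 and 7.91 in the knockout line, against 7.70, 7.57 and 7.99 in the rescued line, lowest at 6 h in both lines, and rose by 0.30 at 18 h (SE 0.08, limma adjusted p = 0.023). IFIT5, the remaining family member, read 9.16, 8.98 and 9.01 in the knockout line, against 9.24, 9.04 and 8.99 in the rescued line, and fell by 0.20 (SE 0.06, limma adjusted p = 0.041). The second IFIT5 probe set differed by -0.05 (limma adjusted p = 0.57) and the mean of its probe sets by -0.13 (limma adjusted p = 0.13), so the fall rests on the brightest probe set.

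ISG15 is a ubiquitin-like protein that is attached to other proteins by an enzyme cascade, UBE2L6 being its conjugating enzyme, HERC5 its main human ligase and USP18 the protease that removes it. ISG15 read 7.74, 8.04 and 8.96 in the knockout line, against 7.68, 8.08 and 8.92 in the rescued line, and rose by 1.23 (SE 0.06, 2.35-fold, limma adjusted p = 0.00027). The lines lay within 0.06 of each other at each treatment. UBE2L6 read 8.43, 8.68 and 9.32 in the knockout line, against 8.76, 9.02 and 9.60 in the rescued line, and rose by 0.86 (SE 0.06). HERC6, a relative of HERC5 that serves as the ligase in mouse, read 6.28, 6.16 and 7.35 in the knockout line, against 6.45, 6.67 and 7.34 in the rescued line, and rose by 0.98 (SE 0.13). In HERC6 the rise came after 6 h, when the knockout line stood below its vehicle array. HERC5 and USP18 did not pass: HERC5 changed by -0.58 (knockout) and 0.22 (rescued), and USP18 by 0.25 (knockout) and 0.09 (rescued).

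The interferon-inducible GTPases include the dynamin-like MX proteins, which trap viral components, and the guanylate-binding proteins, which attack intracellular pathogens. GBP1 read 3.86, 4.74 and 5.61 in the knockout line, against 5.51, 5.83 and 6.78 in the rescued line, and rose by 1.51 at 18 h (SE 0.14, limma adjusted p = 0.001). GBP1 was lower in the knockout line on every array pair, and its knockout array at 18 h was near the level of the rescued line under vehicle. Its knockout arrays under vehicle and at 6 h read below 5, the mean required for a test. The size of its rise in that line therefore rests partly on dim readings. GBP2 read 4.64, 4.81 and 5.85 in the knockout line, against 4.89, 5.45 and 5.75 in the rescued line, and rose by 1.03 (SE 0.17). Both vehicle arrays of GBP2 and its knockout array at 6 h also read below 5. GBP2 passed the filter, at a mean of 5.23, through its higher 18 h readings. The size of its rise therefore rests partly on dim readings. MX1 read 4.84, 5.45 and 5.43 in the knockout line, against 5.61, 5.99 and 6.14 in the rescued line, and rose by 0.56 (SE 0.08) at 18 h, against 0.49 at 6 h. MX2 differed by 0.03 and GBP3 was too dim to test.

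Among membrane and small proteins, IFI6, a mitochondrial and endoplasmic reticulum protein that limits cell death, read 7.41, 7.62 and 8.47 in the knockout line, against 7.48, 7.79 and 8.32 in the rescued line, and rose by 0.95 (SE 0.09). IFITM1, which blocks entry of enveloped viruses, read 5.20, 5.42 and 6.16 in the knockout line, against 4.93, 5.10 and 5.71 in the rescued line, and rose by 0.87 (SE 0.07). In both genes the 18 h arrays were the highest of the 6. BST2, or tetherin, which holds budding virions at the cell surface, read 5.55, 5.38 and 5.36 in the knockout line, against 5.50, 5.36 and 5.22 in the rescued line, and fell by 0.23 (SE 0.06, limma adjusted p = 0.031). IFI27 was too dim to test.

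Other effectors split. PARP9 and PARP14 are ADP-ribosyltransferases, and PARP9 acts with the ligase DTX3L in DNA repair and antiviral defence. PARP9 read 5.20, 5.63 and 6.77 in the knockout line, against 5.75, 5.92 and 7.01 in the rescued line, and rose by 1.41 (SE 0.09, limma adjusted p = 0.00045). Its second probe set rose by 0.30 (SE 0.08). PARP14 read 5.81, 6.17 and 6.93 in the knockout line, against 6.30, 6.37 and 7.001 in the rescued line, and rose by 0.91 (SE 0.11). SAMD9 and SAMD9L are neighbouring genes whose products restrict poxviruses. SAMD9 read 7.16, 7.32 and 8.09 in the knockout line, against 7.15, 7.37 and 7.83 in the rescued line, and rose by 0.81 (SE 0.09). SAMD9L read 5.84, 5.93 and 6.57 in the knockout line, against 6.16, 6.51 and 7.15 in the rescued line, and rose by 0.86 (SE 0.09), and its second probe set rose by 0.37.

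The falls were led by ISG20, an exonuclease of single-stranded RNA. ISG20 read 10.41, 9.69 and 8.93 in the knockout line, against 10.26, 9.75 and 8.90 in the rescued line, a fall at each step in each line, and its change of -1.42 at 18 h (SE 0.07, limma adjusted p = 0.00029) was the largest fall among the 37 genes. Its second probe set fell by 1.31 (SE 0.07). PLSCR1, a membrane scramblase induced by interferon, read 9.17, 8.42 and 8.56 in the knockout line, against 9.33, 8.90 and 8.86 in the rescued line, and fell by 0.54 (SE 0.09) at 18 h, against -0.59 at 6 h. CMPK2, a mitochondrial nucleotide kinase, read 6.28, 5.77 and 6.09 in the knockout line, against 6.55, 6.11 and 6.05 in the rescued line, and fell by 0.35 (SE 0.11, limma adjusted p = 0.042). SP110, a nuclear body protein, differed by 0.06 and did not pass.

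The remaining genes have less defined or broader roles, and all 4 that were tested rose at 18 h. IFI16, a nuclear DNA sensor, read 9.03, 9.36 and 9.78 in the knockout line, against 9.14, 9.56 and 9.84 in the rescued line, and rose by 0.73 (SE 0.07). IFI35 read 7.88, 7.998 and 8.84 in the knockout line, against 8.13, 8.46 and 8.94 in the rescued line, and rose by 0.88 (SE 0.10). IFI44 read 7.62, 7.91 and 8.61 in the knockout line, against 8.13, 8.60 and 9.12 in the rescued line, and rose by 0.99 (SE 0.07). LGALS3BP, a secreted glycoprotein that binds galectins, read 10.40, 10.58 and 11.06 in the knockout line, against 10.39, 10.62 and 11.07 in the rescued line, and rose by 0.68 (SE 0.06).

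**Figure D3:**
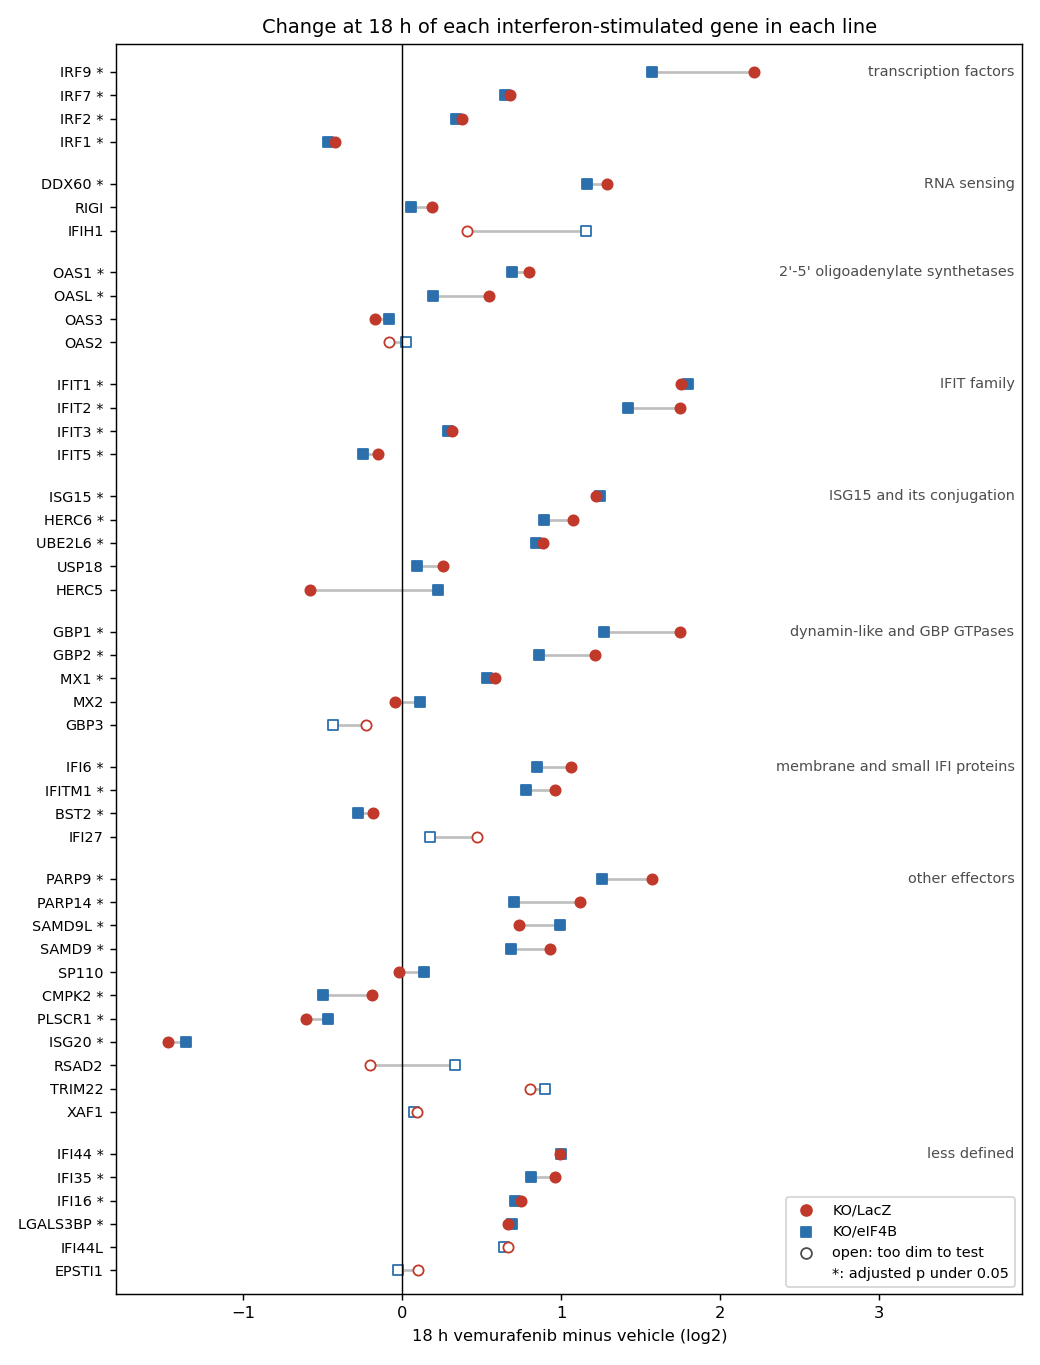
Change from vehicle to 18 h of vemurafenib (log2) of each of the 46 genes with a probe set, grouped by role, in the knockout line (red circles) and the rescued line (blue squares), 1 array pair per point. Open symbols are genes too dim to test and asterisks mark adjusted p under 0.05; 32 genes lie right of zero in both lines and ISG20 lies farthest left.

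The 9 dim genes, EPSTI1, GBP3, IFI27, IFI44L, IFIH1, OAS2, RSAD2, TRIM22 and XAF1, read between 2.64 and 5.58. IFIH1 was the only one of them above 5 in the rescued line at 18 h (5.58, against 4.42 under vehicle), and it read 4.58 in the knockout line at 18 h, against 4.17 under vehicle. When all 19775 genes were fitted with no filter, TRIM22 (0.85), IFIH1 (0.78), IFI44L (0.65) and IFI27 (0.32) passed the threshold at 18 h, with limma adjusted p-values of 0.0082, 0.022, 0.014 and 0.048. RSAD2, or viperin, which makes a chain-terminating nucleotide, read 3.08 to 3.43 over the 6 arrays.

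The rise at 18 h was called for 22 of the 25 genes without any 1 of the 6 arrays; OASL was lost without the knockout vehicle or the knockout 18 h array, and IFIT3 and IRF2 without either vehicle array or the knockout 18 h array. Of the 6 falls, ISG20 and PLSCR1 were called in every such fit, and 2 falls were left without either vehicle array or without the rescued 18 h array, while IFIT5 was called in none of these fits.

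The second comparison asks which of these genes had already moved at 6 h. Of the 37 genes, 8 were higher than under vehicle at 6 h, against 7.34% of all genes tested, and 3 were lower, against 8.82%. IFIT1 had the largest rise, 1.02 (SE 0.06, limma adjusted p = 0.0011), followed among those that passed by GBP1 (0.60), MX1 (0.49), IFI44 (0.38), IFI16 (0.38), DDX60 (0.36), ISG15 (0.35) and UBE2L6 (0.26). IFIT2 differed by 0.61 on its brightest probe set and missed the threshold (SE 0.16, limma adjusted p = 0.058). Its second probe set rose by 0.34 (limma adjusted p = 0.029 in the fit of all probe sets). ISG20 fell by 0.61, PLSCR1 by 0.59 and CMPK2 by 0.47. All 8 rising genes and all 3 falling genes passed in the same direction at 18 h, a comparison that uses the same vehicle arrays. The share of all genes called at 6 h that also passed at 18 h was not counted. The GBP1 call rests on its brightest probe set, since the next one differed by -0.04 at 6 h, whereas at 18 h that probe set rose by 1.06. The median of the 37 genes was 0.19, against 0.03 for all genes tested. Without the knockout vehicle array 1 gene was called higher and 0 lower, without the knockout 6 h array 2 and 0, without the rescued vehicle array 2 and 2, and without the rescued 6 h array 2 and 3, and IFIT1 was the only gene called in every such fit.

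Between 18 h and 6 h of drug, a comparison without vehicle, 24 of the 37 genes were higher at 18 h and ISG20 alone was lower, against 19.0% and 14.9% of all genes tested. The median change was 0.52, against -0.0004 for all genes tested. On the brightest probe sets IRF9 rose most, by 1.63 (SE 0.17, limma adjusted p = 0.0042), then PARP9 (1.11), IFIT2 (0.98), HERC6 (0.93), GBP1 (0.91), ISG15 (0.88), DDX60 (0.86) and IFIT1 (0.76). The second probe set of PARP9 differed by 0.26 and did not pass (limma adjusted p = 0.065), and that of IFIT2 rose by 0.45. Of the 25 genes above vehicle at 18 h, 23 were also above 6 h, and MX1 and OASL were the 2 that did not pass. Both comparisons use the same 18 h arrays, and this overlap was not counted over all genes. PLSCR1 and IRF1, lower than vehicle at 18 h, differed from 6 h by 0.05 and -0.02, which missed the threshold. Leaving out the knockout 6 h array left 15 higher. Since the labels give no time for vehicle, time in culture and drug cannot be told apart in these groups.

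The next comparison asks whether the lines differ with treatment held equal. Of the 37 genes, 7 were lower in the knockout line and 0 were higher, against 1.06% and 1.44% of all genes tested. GBP1 differed most, with 3.86, 4.74 and 5.61 in the knockout line, against 5.51, 5.83 and 6.78 in the rescued line under vehicle, 6 h and 18 h (log2 difference -1.30, SE 0.12, limma adjusted p = 0.028). Its second probe set differed by -1.04. The knockout readings of GBP1 under vehicle and at 6 h were below 5, the mean required for a test. GBP1 passed that filter, at a mean of 5.39, through its higher rescued readings, so the size of this difference rests partly on dim readings. MX1 differed by -0.67 (SE 0.06), DDX60 by -0.57 (SE 0.06), IFI44 by -0.57 (SE 0.06), SAMD9L by -0.49 (SE 0.07), IRF7 by -0.44 (SE 0.06) and UBE2L6 by -0.32 (SE 0.05), with limma adjusted p-values from 0.028 to 0.048. Each of the 7 was lower in the knockout line at all 3 treatments. The fit that picked them averages these same 3 differences, so the shared sign is not separate evidence. In MX1 the lines did not overlap over the 6 arrays: the highest knockout array, 5.45 at 6 h, was below the rescued vehicle array at 5.61. MX1 was picked by the difference over these same arrays, so this is not separate evidence. How many of all genes had no such overlap was not counted. The other called genes overlapped, as GBP1 did with 5.61 in the knockout line at 18 h and 5.51 in the rescued line under vehicle.

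Of all 46 genes, 20 were lower and 4 higher in the knockout line at every treatment, against 19.26% lower and 21.14% higher of all 19775 genes. The median difference of the 37 tested genes was -0.15, against 0.004 for all genes tested, and 15 of the 37 had an unadjusted p under 0.05 (40.5%), against 23.0% of all genes tested. With the mean of all probe sets IFI44 and SAMD9L no longer passed between the lines, at -0.28 and -0.41 (limma adjusted p = 0.089 and 0.054). Other genes that rose with the drug missed the threshold between the lines. Of these, 3 are given with their intervals, picked after their values were seen. IFIT1 differed by -0.06 (95% interval -0.18 to 0.06), ISG15 by 0.02 (-0.10 to 0.15) and IFI6 by -0.03 (-0.22 to 0.16). Others missed with lower values in the knockout line, PARP9 at -0.36 (SE 0.08, limma adjusted p = 0.083), IFI35 at -0.27 and PARP14 at -0.25. PLSCR1, which fell with the drug, missed at -0.32 (SE 0.07, limma adjusted p = 0.099). Its second probe set differed by -0.45 (limma adjusted p = 0.043 in the fit of all probe sets). With the mean of all probe sets PLSCR1 was called lower in the knockout line. IFITM1 lay on the other side, at 0.35 (SE 0.06, limma adjusted p = 0.056), higher in the knockout line at all 3 treatments. Of the 37 tested genes, called or not, 7 had a fitted difference above 0, against 6961 of all 13506 genes tested. The line calls depended on single arrays: without the knockout or the rescued vehicle array 1 of the 7 was called, GBP1, and without any of the other 4 arrays 0 were. Of the marker lists, KRT8 was the gene that passed between the lines, higher in the knockout line by 0.49, and its part in these differences was not tested. With 1 line of each kind, eIF4B cannot be told apart from other differences between the lines.

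**Figure D4:**
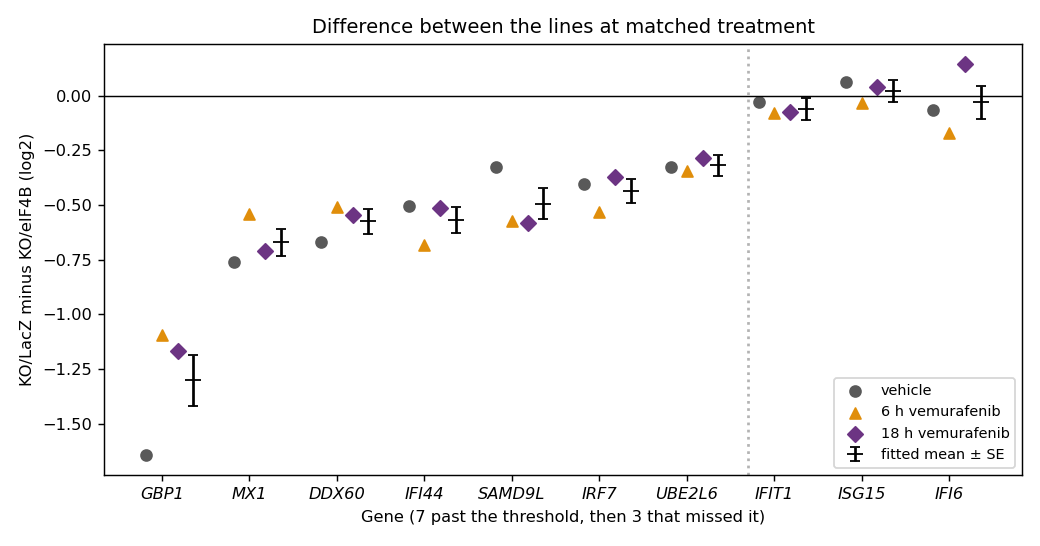
Difference between the knockout and the rescued line (log2) under vehicle, 6 h and 18 h for the 7 genes that passed the threshold and, right of the dotted line, IFIT1, ISG15 and IFI6, which missed it and were added after their values were seen; the dash and bar are the fitted mean and its SE. GBP1 lies lowest, the 7 genes, picked by the mean of these differences, are below zero at all 3 treatments, and the last 3 lie around zero.

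Whether the lines differed in their response to vemurafenib was tested with a term shared by 6 h and 18 h, which leaves 1 residual degree of freedom. No interferon-stimulated gene passed, and 0.0% of all genes did (0 of 13506 by limma, 302 of them at an unadjusted p under 0.05, including 2 of the 37). The fitted differences, knockout minus rescued, ran from -0.61 for HERC5 to 0.51 for GBP1, with SEs of 0.14 to 0.31. For IFIT1 the difference was -0.05 (95% interval -0.40 to 0.30), for ISG15 -0.06 (-0.42 to 0.30) and for IRF9 0.33 (-0.36 to 1.01). These intervals are wide, and a miss does not show that the lines respond alike. At 18 h alone, where there is no test, the gain of IRF9 was 2.21 in the knockout line, against 1.57 in the rescued line, the difference farthest above zero. HERC5 had the one farthest below, -0.80. The median size of this difference was 0.16 at 6 h and 0.14 at 18 h over the 37 genes, against 0.09 and 0.11 over all genes tested.

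Genes upstream of the response are given next, from lists chosen for their place in the pathway. Of 20 interferon genes listed, 18 had a probe set and 17 of these were too dim to test, IFNB1, IFNG and IFNL1 among them. IFNB1 read 3.71, 3.82 and 3.55 in the knockout line, against 3.78, 3.89 and 3.69 in the rescued line. The ligand bright enough to test, IFNA17, differed by 0.05 at 18 h and did not pass.

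Of the receptors and signalling proteins, 5 of 17 were higher and 3 lower at 18 h, against 28.1% and 23.3% of all genes tested. IL10RB, a receptor chain of type III interferons and interleukin-10, rose by 1.44 (SE 0.07) and IFNLR1, the specific type III chain, by 0.65 (SE 0.07). JAK1 rose by 0.44, the type II receptor chain IFNGR1 by 0.35 and STAT3 by 0.30. IFNGR2, the other type II chain, fell by 1.0 (SE 0.07), and the JAK-STAT phosphatases PTPN1 and PTPN2 fell by 0.29 and 0.29. The type I receptor chains IFNAR1 and IFNAR2 differed by -0.03 and 0.14, without passing. At 6 h, 0 rose and 2 fell, IFNGR2 by 0.89 and PTPN1 by 0.27, against 7.34% and 8.82% of all genes tested. Without either vehicle array 3 rose and 1 fell, and without the knockout 18 h array 3 rose.

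In the list of nucleic acid sensors and their adaptors, 6 of 14 rose at 18 h and 3 fell. The background was again 28.1% higher and 23.3% lower. MAVS, the mitochondrial adaptor of RIGI and IFIH1, rose by 1.06 (SE 0.07), TLR3, the endosomal sensor of double-stranded RNA, by 0.97 and RNF135, a ligase that activates RIGI, by 0.76. SAMHD1 (0.46), DHX58 (0.40) and IRF3 (0.38) rose too. STING1, the adaptor of cytosolic DNA sensing, fell by 0.73 (SE 0.08), TICAM1, the adaptor of TLR3, by 0.67 and TRAF3 by 0.53. At 6 h TLR3 (0.89) and RNF135 (0.43) rose, while STING1 fell by 0.58, TICAM1 by 0.44 and TRAF3 by 0.43. Without the rescued vehicle array 4 rose. CGAS, the DNA sensor ahead of STING1, was too dim to test.

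In a further list, chosen as interferon-induced genes, 14 of 32 tested rose at 18 h and 7 fell, with a median change of 0.11. Whether interferon induces each gene of this list, ISG20L2 among them, was not tested here. The background at 18 h was again 28.1% higher and 23.3% lower. The rises were led by TRIM5 (0.89), MOV10 (0.83), CNP (0.76), NMI (0.70), PARP10 (0.63), ZC3HAV1 (0.61), SHISA5 (0.48) and DTX3L (0.41), the partner of PARP9. PNPT1 fell by 1.04, ISG20L2 by 0.77, TRIM14 by 0.58, NT5C3A by 0.58, LY6E by 0.37, PML by 0.27 and CXCL9 by 0.24. Without either vehicle array 9 rose, and without the knockout vehicle array 4 fell. EIF2AK2, the RNA-activated kinase PKR, differed by -0.07 without passing. At 6 h ZC3HAV1 (0.52) and CXCL9 (0.33) rose, and ISG20L2 fell by 0.44 and PNPT1 by 0.36. Between the lines, 0 members of these 3 lists passed by limma, and 2 of 17, 5 of 14 and 8 of 32 had an unadjusted p under 0.05, against 23.0% of all genes tested. For the 6 h counts of these lists the background is again 7.34% higher and 8.82% lower, and no test was run between the lists.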

How the data were processed

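The files hold 1 table of Affymetrix U133 Plus 2.0 probe sets. Its values are intensities that the authors made with RMA in the affy package, per the submitters' processing notes, versions not given in the sources used here. The deposited intensities are on a linear scale, so log2 was taken first. RMA quantile-normalizes the arrays together, so a change in total mRNA would not be seen. Of 54675 probe sets, 41091 carry 1 symbol; symbols were checked against RefSeq through gene identifiers, with 41037 matched and 0 changed. Among the 46 genes, 13 were read from probe sets with the suffix _s_at and 2 with _x_at, which can match more than 1 transcript.

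One additive limma 3.58.1 fit (R 4.3.3) of line and treatment used all 6 arrays and 13506 genes (lmFit and eBayes, 2 residual plus 3.19 prior degrees of freedom), with Benjamini-Hochberg adjustment over all genes and a threshold of 0.05. Its error is the disagreement between the lines. The response term shared by 6 h and 18 h had 1 residual and 4.42 prior degrees of freedom. The fit was tested on simulated data. Genes, lists and tests were chosen with earlier results of these data known. Array values are given for genes that passed any of the 5 tests, other genes by range or count; list genes that passed at 6 h, 18 h or between the lines are named, up to 8 per list and direction. Genes named beyond that rule (HERC5, USP18, MX2, OAS3, SP110, IFNB1, IFNA17, IFNAR1, IFNAR2, CGAS and EIF2AK2) were chosen after their values were seen. Alternatives changed the filter, the probe set rule, the variance prior, the pseudocount, the centring, the minimum change and the arrays.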

Additional observations from a re-analysis of the deposited data

How the results depend on the processing

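No paired analysis was possible because the labels give no replicate numbers and each group has 1 array; the line is already a term of the fit. No called gene turned direction under any alternative run. Of the calls, 26 of 31 at 18 h, 21 of 25 between 18 h and 6 h, 6 of 11 at 6 h and 2 of 7 between the lines passed under every alternative that gave them a value, apart from those that leave out an array or require a minimum change. The 2 between the lines were GBP1 and MX1. Neither was bright enough for the test at a mean of at least 6. GBP1 was also too dim to test with the mean of all probe sets. With no filter on dim genes, 4 genes were higher at 6 h, 3 lower at 18 h and 2 lower in the knockout line. With a mean of at least 6, 4 were lower in the knockout line. With the mean of all probe sets, 5 were lower at 6 h, 2 lower between 18 h and 6 h and 1 higher in the knockout line, and the median at 18 h was 0.56; with an intensity trend 1 was higher in the knockout line. Centring the arrays lowered the 18 h change of all genes by 0.10, and the median of the interferon-stimulated genes was 0.63, with OASL and IFIT3 no longer passing. Requiring a change beyond 0.5 log2 units left 1 higher and 0 lower at 6 h, and 13 and 1 at 18 h. It left 3 and 0 between 18 h and 6 h, and 0 lower in the knockout line. At 18 h it left 1 and 1 receptor or JAK-STAT genes and 2 and 0 sensing genes. Of the further list it left 1 and 2 at 18 h. Without each array in turn, 1 to 9 were higher and 0 to 3 lower at 6 h. At 18 h 2 to 4 were lower. In the same fits 15 to 24 were higher between 18 h and 6 h, and 0 to 1 lower in the knockout line. Receptor and JAK-STAT genes at 18 h gave 3 to 6 higher and 1 to 3 lower. Genes of the further list gave 9 to 13 higher and 4 to 6 lower at 18 h. The median response difference ranged from -0.0746 to 0.0938 without 1 drug array, with no test; without a vehicle array it could not be estimated. Fitting all probe sets together, an alternative chosen after seeing the data, gave 7 higher and 3 lower at 6 h, 25 and 6 at 18 h, 24 and 1 between 18 h and 6 h, and 0 and 6 between the lines. The causes were not tested. With 2 residual degrees of freedom, small changes and dim genes are beyond what these arrays can resolve.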
